A study of Mus musculus with 16 samples.

Results

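Genes that make, carry or sense prostaglandins and leukotrienes were followed in mouse airway epithelium: Ptgs1, Ptgs2, Ptges, Ptgds, Hpgds, Alox15, Alox5, Alox5ap, Ltc4s and Cysltr1. These 10 genes were found on the arrays by the transcript identifier of each probe, which gave 14 of 41174 probes, and 9 of the 10 were among the 18566 genes and unnamed transcripts that could be tested. The epithelium was collected by brushing from FvB mice, either beta6 knockout (ko) animals, which lack the integrin subunit encoded by Itgb6, or wildtype (wt) animals. Mice of each genotype were given ovalbumin (OVA), an egg white protein that provokes allergic airway disease, or saline without it. The OVA mice had 3 injections of 20 ug into the abdomen on days 1, 4 and 7 and then 9 weekly doses of 10 ug by the nose. Saline was given on the same schedule. The age at sensitization was 6 to 8 weeks for all groups, and RNA was taken 24 h after the final dose. There were 4 arrays each of ko_OVA, ko_saline, wt_OVA and wt_saline. The labels number the samples but do not say that each came from its own mouse, so the p-values measure the spread between samples, and neither the knockout's construction nor any pooling of animals is stated.

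Eicosanoids are lipid signals made from arachidonic acid, which phospholipases A2 free from membranes. The cyclooxygenases turn it into an unstable prostaglandin from which terminal synthases form prostaglandin E, prostaglandin D and other prostanoids, while lipoxygenases start the leukotrienes and the hydroxylated fatty acids. In the airways the cysteinyl leukotrienes and prostaglandin D are known from mast cells and other leukocytes as constrictors and attractants, and prostaglandin E is known as a product of the epithelium.

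Each signal is given on the log2 scale relative to the 75th percentile of its array, so that 0 is that percentile and each unit is a doubling. Levels below -3.32, the dimmest signal that every array could separate from background, were set to that floor. The 75th percentile itself lay between 78.0 and 793 intensity units. The share of probes well above background was 74.5% on wt_OVA 1 and 73.2% on wt_OVA 2, against 43.3% to 62.8% on the other 14 arrays, so those arrays stand apart. The 5 epithelial identity markers (Epcam, Cdh1, Krt8, Krt18, Krt19) were above the floor on all 16 arrays. The Itgb6 probe read -1.17 ± 0.36 in ko_OVA, -0.86 ± 0.13 in ko_saline, -0.59 ± 0.04 in wt_OVA and -0.75 ± 0.25 in wt_saline (SD, n = 4 each), with an adjusted p of 0.452 for ko minus wt over both agents. Whether the probe lies within the deleted part is not given in the sources used here, so the genotypes are used as labelled. Changes were tested with limma on all 16 arrays and adjusted over all genes tested, and a gene is called where the adjusted p is under 0.05. Ovalbumin minus saline was taken within each genotype and as the mean of both genotypes, and ko minus wt within each agent and as the mean of both agents.

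Ovalbumin changed 2 of the 9 tested genes over both genotypes. Ptgs1, the constitutive cyclooxygenase, fell to 0.626 of its saline level, and Alox15, the lipoxygenase of airway epithelium and leukocytes, rose 1.48-fold. The 7 other tested genes were not called. Of all genes tested, 6.46% were called in this comparison, 3.72% higher and 2.74% lower. The median log2 difference was 0.14 over the 9 genes and 0.01 over all genes.

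The upstream sequence of Ptgs1 is shown because its fall over both genotypes was called in every setting tried, though not within either genotype in the settings used. That of Ptges is shown because that enzyme acts just after the cyclooxygenases. That of Alox5 is shown because its mean was higher in ko than in wt at each of 3 probes, though it was not called. The RefSeq promoter table on GRCm38.p6 held 7 of the 10 genes. The sequences are the 250 bases before the transcription start on the gene's strand, 5′ to 3′, at chr2:36230176-36230425 (plus strand) for Ptgs1, chr2:30903298-30903547 (minus strand) for Ptges and chr6:116461179-116461428 (minus strand) for Alox5. Capitals mark matches, on either strand, to the GC box GGGCGG, the TATA box TATAAA, the STAT6-type palindrome (TTC, then any 4 bases, then GAA) or the GATA-type AGATAA.
Ptgs1: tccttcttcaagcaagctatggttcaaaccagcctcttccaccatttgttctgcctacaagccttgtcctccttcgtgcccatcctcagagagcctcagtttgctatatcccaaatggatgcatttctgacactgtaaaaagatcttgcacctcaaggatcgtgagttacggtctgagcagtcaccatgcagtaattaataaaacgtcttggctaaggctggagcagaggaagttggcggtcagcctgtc
Ptges: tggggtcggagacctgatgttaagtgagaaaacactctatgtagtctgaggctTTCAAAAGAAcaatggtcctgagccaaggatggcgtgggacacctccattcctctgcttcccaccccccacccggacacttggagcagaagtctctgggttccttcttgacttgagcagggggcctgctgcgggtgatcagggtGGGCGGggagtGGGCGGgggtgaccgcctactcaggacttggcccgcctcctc
Alox5: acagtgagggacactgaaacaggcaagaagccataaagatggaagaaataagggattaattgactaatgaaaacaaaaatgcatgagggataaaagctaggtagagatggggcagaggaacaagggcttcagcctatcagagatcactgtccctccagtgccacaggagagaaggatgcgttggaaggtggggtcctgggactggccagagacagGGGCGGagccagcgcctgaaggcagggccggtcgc

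The Ptgs1 stretch held none of these motifs. The Ptges stretch held 2 GC boxes, close together near the start, and 1 STAT6-type palindrome further upstream. The Alox5 stretch held 1 GC box. Among all 32841 promoters in the table, 32.7% held the GC box, 12.4% the TATA box, 5.85% the STAT6-type palindrome and 9.99% the GATA-type motif in the same window. A letter match is a description and shows no binding.

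Ptgs1 encodes cyclooxygenase 1, which makes prostaglandins at a steady rate in many tissues. Its log2 level was 1.47, 1.55, 1.64 and 1.89 in ko_OVA, against 2.26, 2.15, 2.03 and 2.84 in ko_saline. It was 1.47, 1.41, 1.35 and 1.53 in wt_OVA, against 1.94, 2.34, 1.80 and 2.35 in wt_saline. Every OVA array lay below every saline array of the same genotype, and the wt_OVA arrays were the tightest group. The log2 difference was -0.68 ± 0.12 (SE) over both genotypes, with an adjusted p of 0.00415 (limma). It was -0.68 ± 0.17 in ko and -0.67 ± 0.17 in wt, and the interaction of -0.01 (95% interval -0.53 to 0.51) had an adjusted p of 0.999. Within genotypes the adjusted p was 0.0991 in ko and 0.0531 in wt, so neither was called alone. The call over both genotypes was kept in all 30 alternative settings, including those without wt_OVA 1 (adjusted p 0.0106) and without wt_OVA 2 (0.00951). On the slides that carried both agents of a genotype, the difference was negative in 6 of 6 comparisons and ran from -1.19 to -0.40, and with slide as a block it was -0.69 (adjusted p 0.0133).

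Several marker lists differed between the same groups. All 5 ciliated cell markers and all 7 mucous cell markers were called higher with OVA over both genotypes. So were 9 of the 12 mast cell markers tested, with 8 called higher in wt and 1 in ko. The ciliated sum was 292 to 351 in ko_OVA, against 81.5 to 216 in ko_saline, and 314 to 359 in wt_OVA, against 258 to 326 in wt_saline, in multiples of the 75th percentile. The summed level of 9 fibroblast and smooth muscle markers was 21.8 to 30.5 in ko_OVA, against 39.8 to 55.9 in ko_saline, and 12.6 to 38.3 in wt_OVA, against 24.4 to 43.97 in wt_saline. None of those 9 markers was called. The sum over 5 alveolar markers was 68.0 to 115.8 in ko_OVA, against 116.5 to 204 in ko_saline, and 58.3 to 117 in wt_OVA, against 125 to 130 in wt_saline, with 1 of 5 called lower in each genotype. All 5 were lower with OVA in ko (median log2 difference -1.49). In wt the 5 were mixed, with 3 lower and 2 higher (median -0.04). The sum over 4 platelet markers overlapped, at 0.935 to 3.41 in ko_OVA, 0.901 to 9.06 in ko_saline, 0.659 to 5.41 in wt_OVA and 0.874 to 6.01 in wt_saline. Over the 16 arrays, which share their group structure, Ptgs1 had a Pearson correlation of -0.76 with the log2 ciliated sum. It was -0.69 with the mucous sum, 0.76 with the alveolar sum and 0.57 with the fibroblast and smooth muscle sum. With the mast cell sum it was -0.07 and with the platelet sum 0.01. The part of these cells in the Ptgs1 result was not tested, and in these bulk samples fewer cells of a type and less RNA per cell cannot be told apart.

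Ptgs2, the inducible cyclooxygenase, stayed near the floor. Its brighter probe, spotted 10 times, read -3.29, -1.87, -2.91 and -3.24 in ko_OVA, against -3.07, -3.32, -2.83 and -3.32 in ko_saline. It read -2.34, -3.32, -2.73 and -2.78 in wt_OVA, against -3.03, -3.32, -3.23 and -3.13 in wt_saline. The brightest array was ko_OVA 2, and the OVA and saline ranges overlapped in both genotypes. The 95% interval of OVA minus saline over both genotypes was -0.07 to 0.76, with an adjusted p of 0.355. The second probe was at the floor on 10 of 16 arrays.

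Ptges, the inducible prostaglandin E synthase, was higher on the wt_saline arrays than on any other. It read 0.99, 0.64, 0.69 and 0.97 in ko_OVA, against 0.63, 0.61, 0.54 and 0.79 in ko_saline. It read 0.86, 0.83, 0.68 and 0.97 in wt_OVA, against 1.02, 1.52, 1.13 and 1.25 in wt_saline. All wt_saline arrays were above all arrays of the other 3 groups, whose ranges overlapped each other. The difference of ko minus wt after saline was -0.59 ± 0.12 (0.665-fold), with an adjusted p of 0.0856, and it was negative on 3 of 3 slides (-0.94 to -0.39). With slide as a block it was -0.59 (adjusted p 0.280). The difference of OVA minus saline was 0.18 ± 0.12 in ko, with an adjusted p of 0.726, and -0.39 ± 0.12 in wt, with an adjusted p of 0.0985. The interaction, 0.57 ± 0.17 (95% interval 0.22 to 0.93), had an adjusted p of 0.993, and ko minus wt after OVA was -0.01 with an interval of -0.27 to 0.24. None of these was called, in the settings used or in any alternative run.

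The summed level of 5 ciliated cell markers also set wt_saline above ko_saline, at 81.5 to 216 in ko_saline, against 258 to 326 in wt_saline, with none of 5 called. The median log2 difference of the 5 was -0.09, with 4 lower in ko and 1 higher. In the OVA groups the ciliated sum was 292 to 351 in ko_OVA and 314 to 359 in wt_OVA. For 9 tuft cell markers the sum was 3.34 to 4.04 in ko_saline, against 4.79 to 5.44 in wt_saline, with none of 8 tested called. The tuft sum was 3.25 to 6.00 in ko_OVA and 3.59 to 5.60 in wt_OVA. For 6 eosinophil markers it was 0.602 on every ko_saline array, all at the floor, against 0.876 to 1.77 in wt_saline. The sum over 14 mast cell markers ran the other way, at 80.3 to 102 in ko_saline, against 31.3 to 44.5 in wt_saline. The mast cell sum was 91.5 to 140 in ko_OVA and 54.8 to 62.9 in wt_OVA. Their part in the Ptges values was not tested.

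The prostaglandin D synthases Hpgds, the form of mast cells and other haematopoietic cells, and Ptgds, the lipocalin form, were dim. Both were at the floor on 15 of 16 arrays, and the exception was wt_OVA 1 in each case, with Hpgds at -2.17 and Ptgds at -2.72. Hpgds was well above its array's own background on 3 ko_OVA, 2 ko_saline, 2 wt_OVA and no wt_saline arrays. No fold is given for it, because the floored values rest on wt_OVA 1 alone. Ptgds was well above background on 6 of 16 arrays, spread over all 4 groups. Neither gene was called in any comparison.

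**Figure D1:**
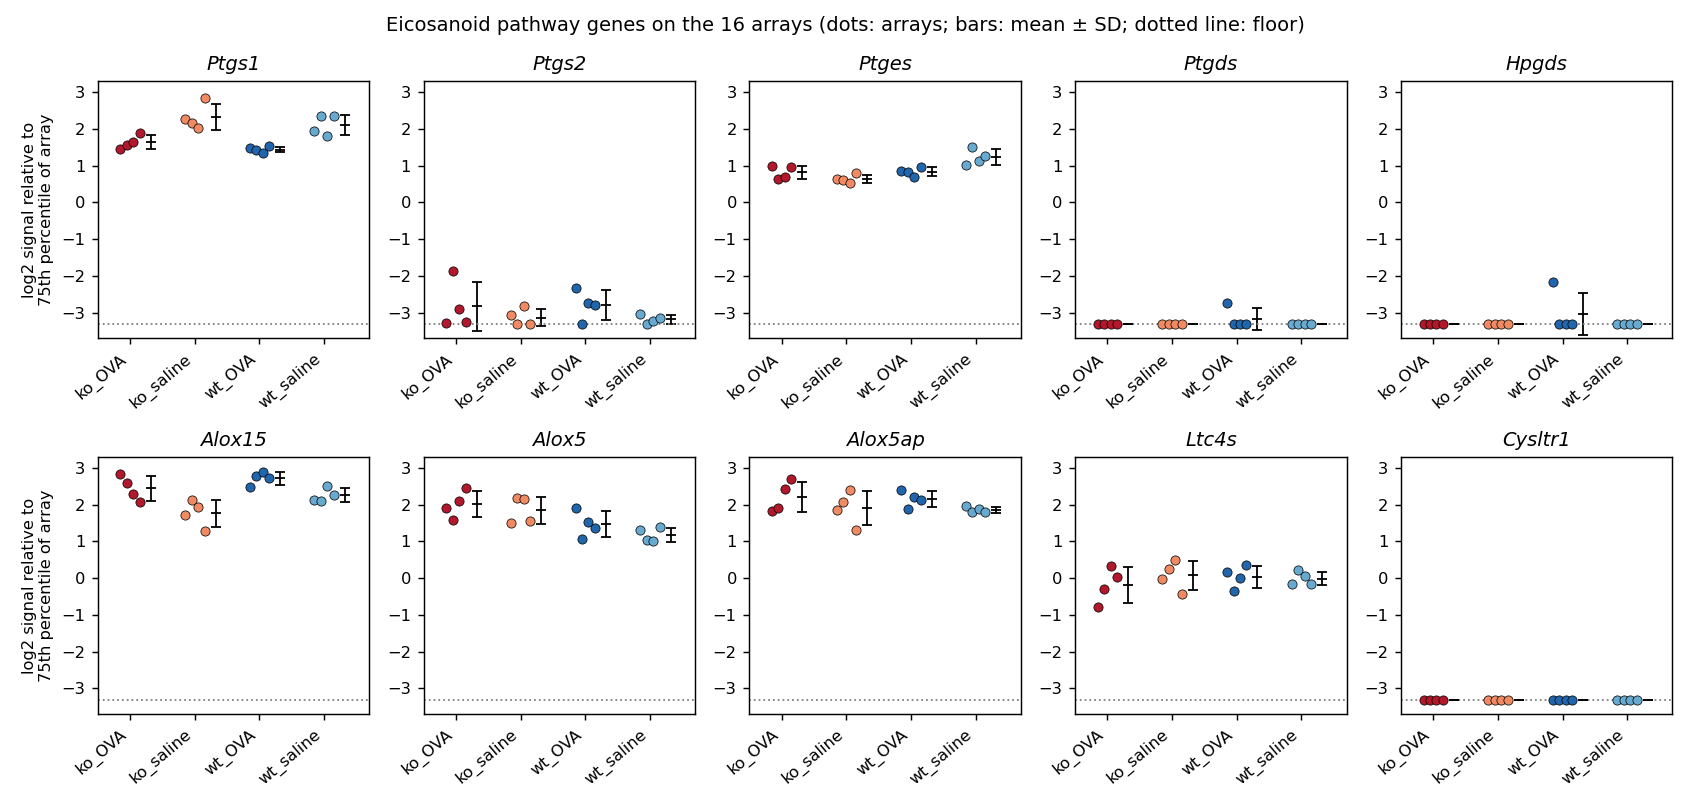
Log2 level of each of the 10 genes on each array, relative to the 75th percentile of the array, by group; dots are arrays, bars are the group mean ± SD, and the dotted line is the floor at -3.32. The Ptgs1 dots of OVA groups lie below those of the saline group of their genotype, the Ptges dots of wt_saline lie above all others, and Ptgds, Hpgds and Cysltr1 sit on the floor on all but 1 array or on every array.

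Alox15 encodes the lipoxygenase that in mice forms mainly hydroxylated products of arachidonic acid, and it was bright in every group. Its log2 level was 2.83, 2.57, 2.29 and 2.07 in ko_OVA, against 1.71, 2.14, 1.92 and 1.29 in ko_saline. It was 2.47, 2.77, 2.88 and 2.72 in wt_OVA, against 2.12, 2.10, 2.51 and 2.27 in wt_saline. In each genotype all OVA arrays lay above the saline median, while the lowest OVA array lay just below the highest saline array. The rise over both genotypes was 0.57 ± 0.13, with an adjusted p of 0.0220 (limma). It was 0.68 ± 0.19 in ko (adjusted p 0.155) and 0.46 ± 0.19 in wt (adjusted p 0.236). The interaction was 0.21 (95% interval -0.36 to 0.79) and was not called. Within slides the difference was positive in 6 of 6 comparisons and ran from 0.16 to 1.12, and with slide as a block it was 0.63 (adjusted p 0.0401).

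The Alox15 call was lost with normexp background correction (0.50, adjusted p 0.236), median scaling (0.44, adjusted p 0.500), array position as a block (0.66, adjusted p 0.0968) and without wt_OVA 3 (0.54, adjusted p 0.0515). It was kept without wt_OVA 1 (adjusted p 0.0254) and without wt_OVA 2 (0.0417). Position 4 of the slides held OVA arrays alone, so the position block is not independent of OVA. The ko arrays read lower than wt arrays, by -0.49 after saline (adjusted p 0.708) and by -0.38 over both agents (adjusted p 0.496), and neither was called. The ciliated cell markers given beside Ptgs1, of which 5 of 5 were called higher over both genotypes, moved with Alox15 as well. Over the 16 arrays, which share their group structure, the log2 ciliated sum had a Pearson correlation of 0.85 with Alox15. The alveolar sum had one of -0.85, and the fibroblast and smooth muscle sum one of -0.59. The mucous sum had one of 0.58, and the mast cell sum one of -0.24. Of the 12 mast cell markers tested, 9 were called higher over both genotypes. Between Alox15 and Ptgs1 the correlation was -0.89. All 7 mucous cell markers were higher after OVA in each genotype, and their sum was 325 to 1028 in ko_OVA, against 83.4 to 103 in ko_saline, and 349 to 1337 in wt_OVA, against 84.9 to 189 in wt_saline. The 9 macrophage and dendritic cell markers overlapped, with sums of 5.92 to 14.4 in ko_OVA, 5.21 to 13.7 in ko_saline, 7.28 to 11.4 in wt_OVA and 7.70 to 11.1 in wt_saline. All 6 eosinophil markers were at the floor on every ko_saline array, and between 3 and 6 of them were at the floor on each array of the other groups. The part of these cells in the Alox15 result was not tested.

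**Figure D2:**
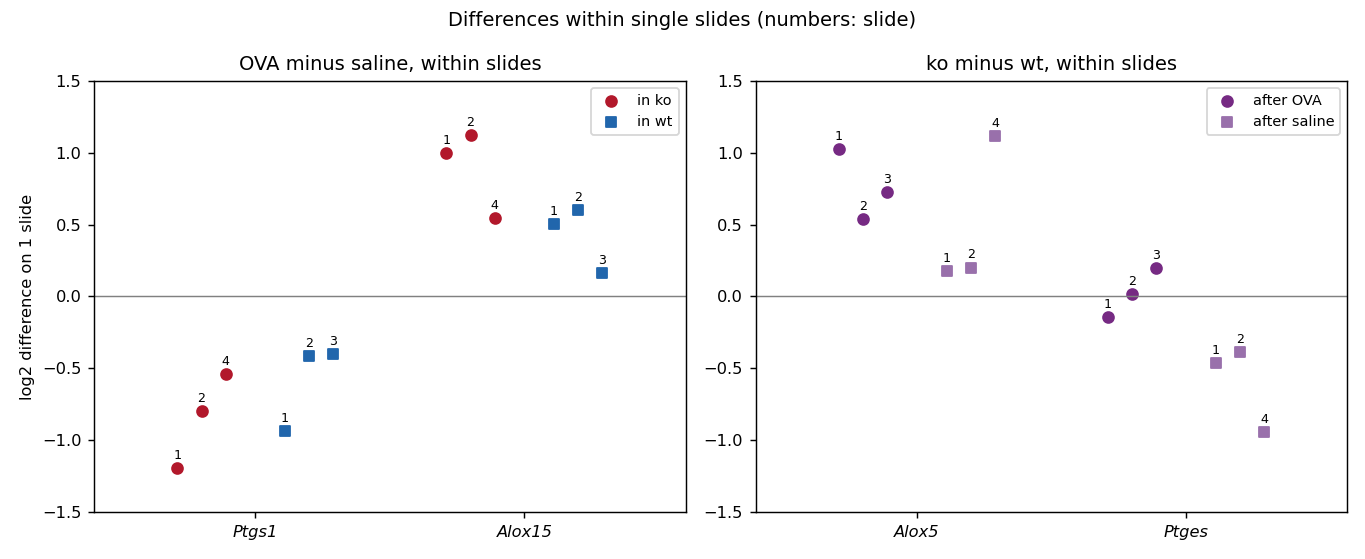
Log2 difference within single slides, numbered beside each point, for OVA minus saline in ko and wt (left, Ptgs1 and Alox15) and for ko minus wt after OVA and after saline (right, Alox5 and Ptges). All 6 points of Ptgs1 are negative and all 6 of Alox15 positive; all 6 of Alox5 are positive, and Ptges is negative on 3 of 3 slides after saline and on 1 of 3 after OVA.

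Alox5 encodes the enzyme that opens leukotriene synthesis, and Alox5ap the membrane protein that presents arachidonic acid to it. The brightest of 3 Alox5 probes read 1.91, 1.59, 2.10 and 2.45 in ko_OVA, against 1.91, 1.07, 1.54 and 1.37 in wt_OVA. It read 1.51, 2.17, 2.16 and 1.55 in ko_saline, against 1.31, 1.04, 1.00 and 1.38 in wt_saline. All ko_saline arrays lay above all wt_saline arrays, and after OVA the genotypes overlapped only through wt_OVA 1. Over both agents ko minus wt was 0.60 ± 0.15 (1.52-fold), with an adjusted p of 0.224, so it was not called. It was 0.54 ± 0.22 after OVA (adjusted p 0.884) and 0.66 ± 0.22 after saline (adjusted p 0.572). The other probes gave 0.47 ± 0.16 and 0.39 ± 0.15 over both agents. Within slides it was positive in 6 of 6 comparisons, from 0.17 to 1.12. It was 0.66 with slide as a block (adjusted p 0.333) and 0.31 with array position as a block (adjusted p 0.861). Position 3 of the slides held ko arrays alone, position 2 wt arrays alone and position 4 OVA arrays alone.

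Most mast cell markers, but not all, were also higher in ko than in wt. After saline 9 of the 12 tested were called higher in ko, and after OVA 7 were called higher and 2, Mcpt1 and Mcpt2, lower. Mcpt1 averaged -2.97 in ko_OVA, against 1.21 in wt_OVA, and Mcpt2 averaged -2.16 in ko_OVA, against -0.74 in wt_OVA. The sum over 14 measured markers was 91.5 to 140 in ko_OVA, against 54.8 to 62.9 in wt_OVA, and 80.3 to 102 in ko_saline, against 31.3 to 44.5 in wt_saline. The median log2 difference of the 12 tested, ko minus wt, was 1.83 after OVA and 2.93 after saline. On the wt_saline arrays 6 to 11 of the 14 were at the floor. Of the defining genes, Ms4a2 and Mrgprb1 were at the floor on all arrays, while Cpa3, a protease of the mast cell granule, averaged 2.64 in ko_OVA, against -0.20 in wt_OVA, and 2.75 in ko_saline, against -2.45 in wt_saline. The 3 basophil markers were at the floor on every array. The mast cell part in the Alox5 values was not tested.

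Alox5ap read 1.82, 1.91, 2.42 and 2.69 in ko_OVA, against 1.84, 2.07, 2.39 and 1.29 in ko_saline. It read 2.39, 1.87, 2.19 and 2.12 in wt_OVA, against 1.95, 1.79, 1.88 and 1.80 in wt_saline. The groups overlapped throughout, with ko_saline 4 the lowest array and wt_saline the tightest group. Its OVA minus saline interval over both genotypes was -0.04 to 0.63 (adjusted p 0.321), and its ko minus wt interval over both agents was -0.28 to 0.39 (adjusted p 0.929).

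Ltc4s, which joins glutathione to the leukotriene to give the first cysteinyl form, was near the 75th percentile. It read -0.79, -0.31, 0.32 and 0.04 in ko_OVA, against -0.03, 0.26, 0.48 and -0.43 in ko_saline. It read 0.17, -0.36, -0.01 and 0.36 in wt_OVA, against -0.17, 0.22, 0.05 and -0.15 in wt_saline. All 4 ranges included values on both sides of 0. The interval of OVA minus saline over both genotypes was -0.46 to 0.26 (adjusted p 0.787) and that of ko minus wt over both agents was -0.43 to 0.29 (adjusted p 0.917). Cysltr1, the main receptor of cysteinyl leukotrienes, was at the floor on all 16 arrays with both of its probes and was not tested, although 8 and 9 arrays read those probes well above their own background.

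**Figure D3:**
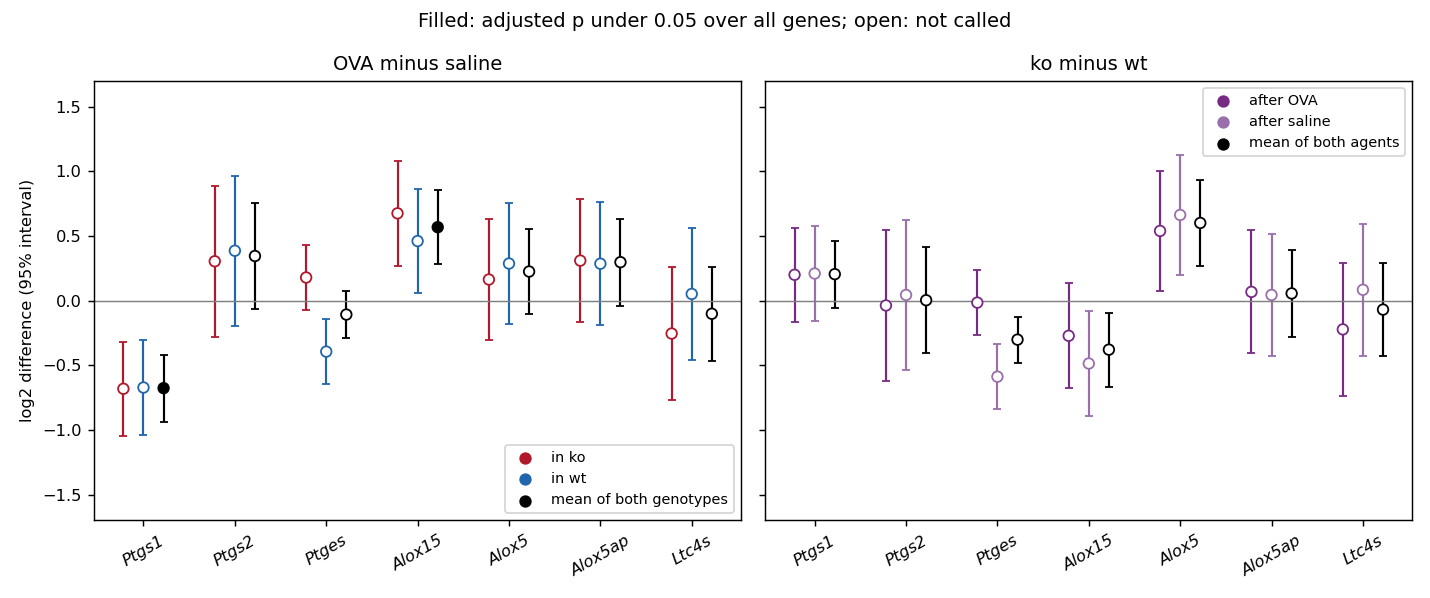
Log2 differences with 95% intervals for the 7 genes above the floor on most arrays: OVA minus saline (left) and ko minus wt (right), each within 1 level of the other factor and as a mean over both. Filled points are called; only Ptgs1 (-0.68) and Alox15 (0.57) are filled, both for OVA over both genotypes.

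No member was called for OVA within a single genotype, and none in the genotype comparisons or the interaction. Calls over all genes were 0.749% for OVA in ko, 2.61% for OVA in wt, 0.145% for ko minus wt after OVA, 0.162% after saline and 0.269% over both agents. For the interaction 0 of 18566 genes were called by limma, and 569 had an unadjusted p under 0.05. Below that unadjusted level lay 2 members for OVA in ko (Alox15, Ptgs1), beside 1807 of all 18566 genes. For OVA in wt there were 3 (Alox15, Ptgs1, Ptges), beside 3070 of all genes. For ko minus wt there was 1 after OVA (Alox5), beside 943, and 3 after saline (Alox15, Alox5, Ptges), beside 1170. Ko minus wt over both agents had 3 (Alox15, Alox5, Ptges), beside 1442, and the interaction had 1 (Ptges), beside the 569. The 4 arrays of each group did not overlap for Ptgs1 in ko_OVA against ko_saline, where 5.23% of all genes did not overlap, and for Ptgs1 and Ptges in wt_OVA against wt_saline, where 9.28% did not. They did not overlap for Alox5 and Ptges in ko_saline against wt_saline, where 4.05% of all genes did not, and overlapped for every member in ko_OVA against wt_OVA, where 2.37% did not.

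The wider pathway was followed through 57 further genes, of which 53 had a probe and 46 were tested. Over both genotypes OVA raised 2 of the 46 and lowered 4, against 3.72% and 2.74% of all genes, and their median log2 difference was 0.02 beside 0.01 for all genes. The largest change was in Akr1c18, an aldo-keto reductase known in mice for the inactivation of progesterone. It averaged 0.54 ± 0.61 in ko_OVA, against 1.97 ± 0.43 in ko_saline, and -0.17 ± 0.10 in wt_OVA, against 1.92 ± 0.65 in wt_saline (SD, n = 4 each). All 8 OVA arrays lay below all 8 saline arrays, which held for 1.15% of all genes in either direction. The log2 difference was -1.76 ± 0.23 (0.295-fold, adjusted p 0.000505). It was -1.43 in ko (adjusted p 0.0687) and -2.09 in wt (adjusted p 0.00397).

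Among the 5 other lipoxygenases Alox12e, the epidermal lipoxygenase of mice, was called. It averaged 6.88 ± 0.33 in ko_OVA, against 5.92 ± 0.26 in ko_saline, and 7.06 ± 0.34 in wt_OVA, against 6.24 ± 0.33 in wt_saline. Its rise was 0.89 ± 0.15 over both genotypes (1.86-fold, adjusted p 0.00297), and all 8 OVA arrays lay above the saline median. The adjusted p was 0.0553 in ko and 0.0595 in wt.

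Of 4 breakdown and uptake genes Ptgr1, a reductase that inactivates prostaglandins and leukotriene B, fell by 0.55 on the log2 scale (SE 0.12, adjusted p 0.0157). It averaged 3.99 ± 0.23 in ko_OVA, against 4.49 ± 0.31 in ko_saline, and 3.65 ± 0.13 in wt_OVA, against 4.24 ± 0.28 in wt_saline. Among 9 receptors Ptgfr, the receptor of prostaglandin F, rose by 0.60 ± 0.14 (adjusted p 0.0197). It averaged -0.74 ± 0.23 in ko_OVA, against -1.51 ± 0.27 in ko_saline, and -1.27 ± 0.39 in wt_OVA, against -1.68 ± 0.21 in wt_saline. Of 10 leukotriene processing and export genes Abcc4, an exporter of prostaglandins and leukotrienes, was called lower (-0.40 ± 0.11, adjusted p 0.0409). It was -0.16 ± 0.15 in ko (adjusted p 0.854) and -0.64 ± 0.15 in wt (adjusted p 0.0406). The interaction for Abcc4 had an adjusted p of 0.993. Of the 10 phospholipases A2 none was called over both genotypes. Pla2g12a, a secreted form, was called in wt, at -1.28 ± 0.15 in wt_OVA, against -1.68 ± 0.12 in wt_saline (0.39 ± 0.09, adjusted p 0.0315), with an interaction adjusted p of 0.993.

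Fpr2, a formyl peptide receptor that also binds lipoxin, left the floor on all 4 wt_saline arrays, at -2.80 ± 0.18, and on 1 of 4 ko_OVA arrays, so its calls compare values at the floor. It was called lower for OVA over both genotypes (-0.23 ± 0.06, adjusted p 0.0488), for OVA in wt (-0.52 ± 0.09, adjusted p 0.00752) and for ko minus wt after saline (-0.52 ± 0.09, adjusted p 0.0323). The values furthest from 0 came with the lower floor: over the alternatives that keep all arrays they ran from -2.81 to -0.52 for OVA in wt, from -2.02 to -0.46 for ko minus wt after saline and from -1.41 to -0.22 for OVA over both genotypes. The sum over 6 neutrophil markers was 1.197 to 52.9 in ko_OVA, 2.89 to 8.49 in ko_saline, 1.61 to 6.36 in wt_OVA and 7.83 to 26.4 in wt_saline, and its part was not tested. With OVA in ko no gene of the wider pathway was called. Alox12e (adjusted p 0.0553) was called there in 5 of 15 alternatives that keep all arrays and in 2 of 16 that leave out an array, and Akr1c18 (adjusted p 0.0687) in 2 of 15 and in 2 of 16. For ko minus wt after OVA none was called (smallest adjusted p 0.884), and none was over both agents (0.303) or for the interaction (0.675).

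The calls of the wider pathway depended on the setting to different degrees. Over both genotypes Akr1c18 was called in all 30 alternatives. Alox12e was called in 12 of 14 alternatives that keep all arrays, Ptgr1 in 11 and Ptgfr in 10, and each of the 3 in all 16 that leave out an array. Abcc4 was called in 6 of 14 and in 5 of 16, and Fpr2 in 4 of 14 and in 3 of 16. In wt, Pla2g12a was called in 6 of 15 and in 12 of 16, Abcc4 in 6 of 15 and in 6 of 16, Akr1c18 in 14 of 15 and in 16 of 16, and Fpr2 in 12 of 15 and in 16 of 16. The Fpr2 call in ko minus wt after saline was kept in 6 of 15 and in 6 of 16.

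**Figure D4:**
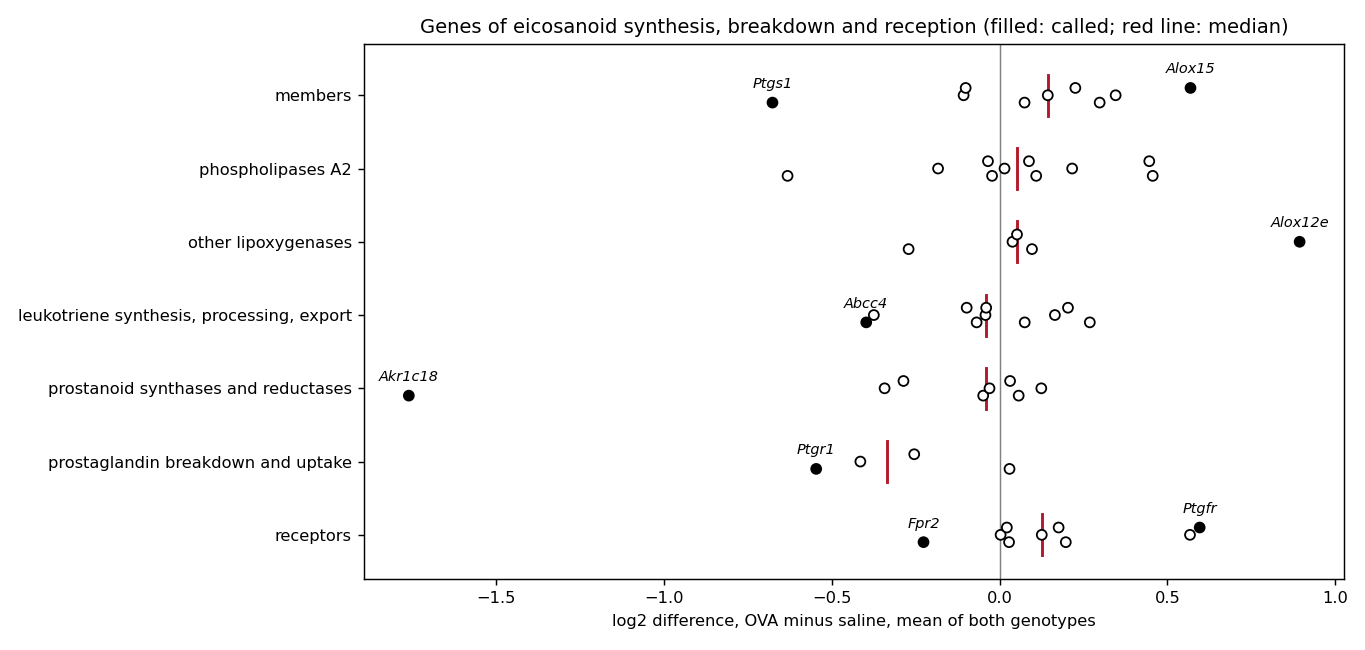
Log2 difference of OVA minus saline, as the mean of both genotypes, for the 9 tested members and the 46 tested genes of the wider pathway, grouped by role; filled points are called and red lines are medians of a row. Akr1c18 lies farthest to the left at -1.76 and Alox12e farthest to the right at 0.89.

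As a description of likeness over the 16 arrays, which share their group structure, the genes with the highest Pearson correlation to Ptgs1 were Slc22a18 (0.96), Ascc2 (0.95) and Gnmt (0.93). Those for Alox15 were Bace2 (0.89), Tspan8 (0.88) and Mphosph8 (0.87). For Alox5 they were Arhgap25 (0.89), Nrros (0.89) and Inpp5d (0.87), for Alox5ap Gfi1b (0.91), Coro1a (0.88) and Gmfg (0.85), and for Ptges Scfd2, Pgpep1 and Stra6l (0.75 each).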

How the data were processed

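RNA of 16 samples was hybridized to one-colour 44K mouse arrays. Per the file headers, the deposited scanner files hold background-subtracted signal intensities from Feature Extraction 10.5.1.1 (10.1 in the submitters' processing notes). Log2 values of the deposited series table served as an alternative. Control spots and spots with outlier flags were dropped, spots of 1 probe were averaged, and signals were divided by the 75th percentile, floored at -3.32 and log2 transformed. A probe had to be flagged well above background by 4 or more of the 16 arrays, which 25615 of 41174 were, and genes at the floor on all arrays were not tested. The brightest probe stood for each gene. Symbols came from RefSeq (GRCm38.p6; the array design is on mm9). All arrays were fitted in limma 3.58.1 (R 4.3.3) with 1 mean per group, and p-values were Benjamini-Hochberg adjusted over 18566 genes at 0.05. The code was tested on simulated data. Alternatives covered background correction, scaling, filters, floor, probe choice, blocks and left-out arrays. The number of arrays limits the precision. The members and the lists were chosen with earlier results of these data known. Of the wider pathway, called genes were named, or the 2 with the smallest p, and up to 3 genes most like each member.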

Additional observations from a re-analysis of the deposited data

Results flagged for a closer look

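In 30 groups of 4 arrays examined for a single array far from the other 3, 2 were marked. Chance marks about 1 group in 20 where values vary freely, but in both of these the other 3 arrays are set to the floor, so any array above it is marked and that rate does not apply. Both fell on wt_OVA 1, the array with the largest share of probes well above background (74.5%). Hpgds read -2.168 there and Ptgds read -2.722, while the other wt_OVA arrays were at the floor of -3.317 for both genes.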

How the results depend on the processing

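With OVA over both genotypes 2 members were called, and Ptgs1 was called in all 30 alternatives (adjusted p 0.00196 to 0.0326). The count was 1, without Alox15, under normexp background correction on the median spot signal, with a block for array position and under median scaling, and 1 to 2 when 1 array was left out, with 1 without wt_OVA 3 (Alox15 adjusted p 0.0515). For OVA in wt the count was 1 (Ptgs1), against 0, under quantile normalization, the stricter filter on dim probes, scan date as a block, limma with a trend and robust variances, and the replicate block. It was 0 to 1 when 1 array was left out, with 1 without ko_saline 4 (adjusted p 0.0161) or without wt_saline 3 (adjusted p 0.0346). For OVA in ko the count was 1 with the replicate block (Ptgs1 adjusted p 0.0450), against 0. Members called stayed at 0 in all other comparisons under the alternatives run. The cause of these changes was not tested.

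The replicate block, which treats equal sample numbers as pairs, gave 2 members over both genotypes. Same-numbered arrays had residual correlations from -0.41 to 0.41 (median -0.01), and differently numbered arrays from -0.57 to 0.48 (median -0.01). The labels do not say whether equal numbers pair the samples, and these correlations do not settle it. With the block 1032 genes were called over both genotypes, against 1200 without it. Under median scaling the median log2 difference of all genes was -0.25 for OVA in wt, 0.32 for ko minus wt after OVA, 0.28 for the interaction, -0.10 for OVA over both genotypes and 0.18 for ko minus wt over both agents, against medians between -0.01 and 0.01 in the settings used. Under it, Pla2g12a in ko minus wt after OVA, not called, turned to 0.0913, against -0.25. It gave 117 genes higher and 262 lower for OVA over both genotypes, against 691 and 509, and 39 and 61 for OVA in wt, against 289 and 196. It gave 24 and 5 for ko minus wt after OVA, against 19 and 8, and 71 and 8 over both agents, against 38 and 12. The number of all genes called ran from 365 to 1388 over the alternatives for OVA over both genotypes, from 94 to 568 in wt (485 in the settings used) and from 7 to 168 in ko (139). It ran from 7 to 38 for ko minus wt after OVA (27), from 15 to 55 after saline (30), from 27 to 85 over both agents (50) and from 0 to 3 for the interaction (0). Fitting the compared groups alone was not possible for the interaction and for the means over both genotypes or agents, which use all groups. Hpgds, Ptgds and Cysltr1 lie at the common floor on 15 or 16 of 16 arrays. That floor is the limit of the dimmest array, ko_OVA 4, although 6 to 9 of 16 arrays read these probes well above their own background.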
